A study of Mus musculus with 3 samples.

Results

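The 37 nuclear-encoded genes for subunits of respiratory complex I were followed in mouse embryonic stem (ES) cells after knockdown of NUP153, a nucleoporin of the nuclear basket. The genes were chosen by symbol alone, as those named Nduf with the letters a, b, s or v and a number, together with Ndufab1, Ndufc1 and Ndufc2, and they are 37 of the 24421 genes in the read counts. RNA-Seq was carried out in 3 libraries of the undifferentiated female ES cell line EL 16.7, whose background is given as F2:129S1/CastEiJx 129S1. The control library, with the genotype wild type, came from cells transduced with a scrambled control shRNA, and the NUP153 KD-1 and NUP153 KD-2 libraries came from cells that received shRNA-1 or shRNA-2, lentiviral shRNAs against mouse NUP153. All cells were kept with LIF on γ-irradiated mouse embryonic fibroblast feeders of the Tg(DR4)1Jae/J strain and were selected with 2 μg/ml puromycin for 2 days, so the control carried the same vector selection as the knockdowns. All 3 libraries came from this single line, and a step that removes feeders before RNA extraction is not given in the sources used here. With 1 library per condition, fold changes below compare libraries, their intervals cover the counting of reads only, and no p-value was given for a single knockdown.

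Complex I is the first enzyme of the mitochondrial respiratory chain. It takes electrons from NADH, passes them over a flavin and a row of iron-sulfur clusters in its peripheral arm to ubiquinone, and pumps protons across the inner membrane with its membrane arm. Its core subunits do this chemistry and are found in bacteria as well, the accessory subunits surround and stabilize them, and the proton-pumping core of the membrane arm is encoded by mitochondrial DNA. ES cells are known to rely strongly on glycolysis while keeping an active respiratory chain.

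The libraries held between 69839336 and 85258834 reads on genes, with a further 23.0% to 25.6% of reads outside of genes, and 16670 genes averaged at least 10 reads per library. Nup153 itself had 27870 reads in control, 16451 with KD-1 and 11126 with KD-2, and its log2 fold change was -0.99 with KD-1 and -1.43 with KD-2. The ES cell markers Pou5f1, Nanog and Sox2 had between 23802 and 61737 reads in each library. To compare libraries, reads were divided by a factor set from the upper quartile of genes with a read, and these values are called scaled reads. A gene was counted as higher or lower past a 1.5-fold difference of scaled reads after a pseudocount of 0.5 reads.

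Of the 37 complex I genes, 36 had reads in every library and passed the minimum of 10 reads, with between 1356 and 27893 reads in control. Ndufs5, a small accessory subunit of the membrane arm that faces the intermembrane space, was listed at 0 reads in all 3 libraries. BC002163, annotated in GENCODE vM21 as a processed pseudogene, had 1301 reads in control, 1616 with KD-1 and 1132 with KD-2. Of the 272 stretches of 50 bases (the read length) in the coding sequence of Ndufs5, 196, or 72.1%, also occur in BC002163, and 21.7% of those in all Ndufs5 transcripts are shared. The longest stretch that both share is 214 bases, starting at coding base 106 of Ndufs5 and lying in 2 exons between chr4:123712824-123715974 on the minus strand (GRCm38). It is printed because reads from it fit both genes equally well:
Ndufs5 shared stretch: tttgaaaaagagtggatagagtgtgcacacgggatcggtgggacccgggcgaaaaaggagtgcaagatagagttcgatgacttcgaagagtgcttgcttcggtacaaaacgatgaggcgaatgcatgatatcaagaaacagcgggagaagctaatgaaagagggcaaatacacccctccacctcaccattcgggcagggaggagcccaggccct
Level and change of Ndufs5 were not determined, since it was listed without reads. The remaining 50-base stretches of its transcripts were not shared with another gene. The cause of the 0 reads was not tested, nor was whether reads of Ndufs5 were given to BC002163. The other members were checked in the same way over all of their transcripts. Of the 36 genes with reads, 13 shared no 50-base stretch with another gene and overlapped no exon of one, and the largest shares, with both strands counted, were 31.6% in Ndufb6, which overlaps Smim27 on the other strand, and 28.5% in Ndufa13, which overlaps Tssk6 there.

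Complex I genes were highly expressed in all 3 libraries. Levels between genes were compared as RPKM, reads divided by the length of the transcript and by the reads on genes of the library, using the longest GENCODE transcript paired with a RefSeq NM entry. In control the median of the 36 genes was 90.3 RPKM, beside 1.23 RPKM over all 20370 genes with a transcript length, and all 36 were above that median of all genes. The medians were 89.0 RPKM with KD-1 and 94.9 RPKM with KD-2. Ndufa4 was the highest in each library, at 632 RPKM in control, 572 with KD-1 and 469 with KD-2, followed by Ndufa1 at 346, 320 and 297 RPKM and by Ndufa11 at 212, 203 and 224 RPKM. Most genes lay close together, since the middle 50% of the 36 genes spanned 71.1 to 130.0 RPKM in control. With 1 library per condition, the order of neighbors was not tested. Over the union of all annotated exons, an alternative chosen after seeing the data, the median in control was 60.4 RPKM, Ndufa1 was the highest in each library, Ndufa4 followed it in control at 279 RPKM, and Ndufc1 moved from place 4 to place 26.

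**Figure D1:**
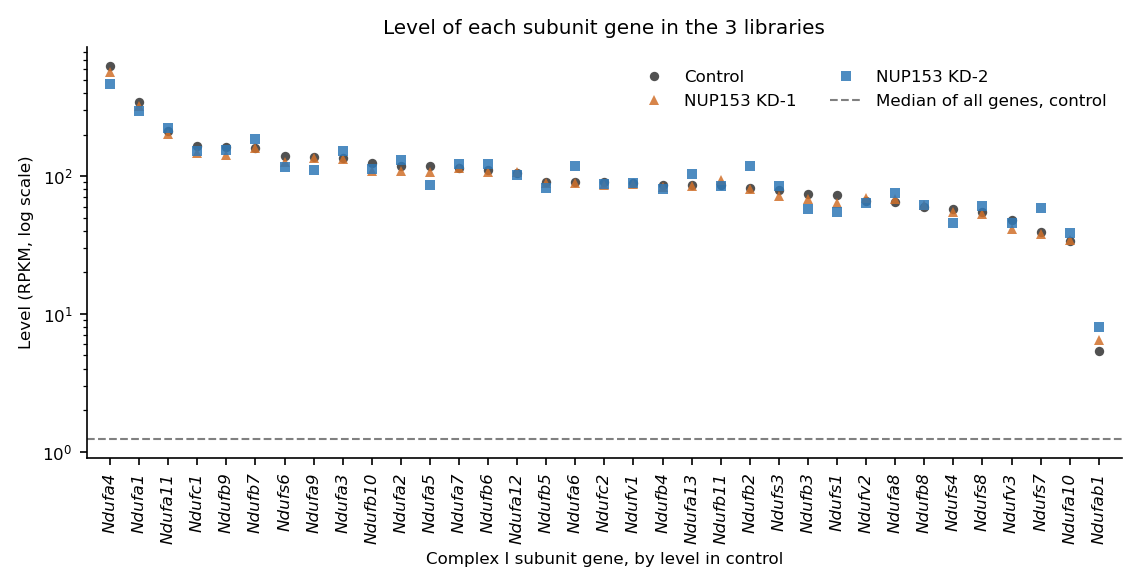
Level of 35 complex I subunit genes in the control, KD-1 and KD-2 libraries, in RPKM on a log axis, ordered by the level in control, with 1 point per library and gene. Ndufa4 sat at the top in each library, Ndufab1 at the bottom, and the dashed line marks the median of all genes in control, 1.23 RPKM.

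Among the roles, the 7 core genes had a median of 73.0 RPKM in control, the lowest being Ndufs7 at 39.5 RPKM. The 9 accessory genes of the peripheral arm had a median of 113 RPKM and the 18 accessory genes of the membrane arm with reads a median of 90.4 RPKM, and the ranges of these groups overlapped. Ndufab1, the mitochondrial acyl carrier protein, had the lowest level, at 5.39 RPKM in control, 6.42 with KD-1 and 8.00 with KD-2. Its place depends on its gene model, because the transcript used has 3479 bases while its shortest protein-coding model has 452, over which the same reads give 41.5 RPKM in control. The order also moved between libraries. Ndufb2 went from place 24 in control to place 13 with KD-2, Ndufs6 from place 7 to place 14 and Ndufa9 from place 8 to place 16.

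In KD-1, complex I genes stayed near control. None of the 36 genes passed 1.5-fold in either direction, while 8.58% of all 16670 genes were higher and 5.65% lower, and of the 5777 genes within the range of mean reads of the complex I genes 55 were higher and 173 lower. The median log2 fold change of the 36 genes was -0.04, beside 0.02 for all genes and -0.03 for genes in that range of reads. The values ran from -0.19 for Ndufb9 to 0.26 for Ndufab1, with 10 genes over 0 and 26 under. The 95% counting interval lay over 0 for 5 genes and under 0 for 15. With each of 5 scalings (the upper quartile, that of the 16670 genes alone, TMM, DESeq2's size factors and total reads) it lay over 0 for 2 genes and under 0 for 13. The median was -0.10 with DESeq2's size factors.

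In KD-2, fold changes were spread more widely than with KD-1, with an SD over the 36 complex I genes of 0.27 beside 0.10, and over all genes of 0.57 beside 0.46. Ndufa5 and Ndufa4 were past 1.5-fold lower and no gene was past 1.5-fold higher, beside 10.2% of all genes lower and 17.0% higher. The share of complex I genes past the limit was 5.56%, and among the 5777 genes in their range of reads 418 were higher and 513 lower. The median of the 36 genes was -0.17, beside -0.02 for all genes and -0.17 for genes in that range of reads. Values ran from -0.62 to 0.41, 9 genes lay over 0 and 27 under, and the counting interval lay over 0 for 7 genes and under 0 for 23. Both calls rest on the scaling, because Ndufa5 and Ndufa4 lie close to the limit and neither passed it with TMM scaling, DESeq2's size factors, total reads or the upper quartile of those 16670 genes alone. Scaling by total reads moved the median of all genes with KD-2 to 0.14 and that of the complex I genes to -0.01, which left the difference between both medians at -0.14 and the number of complex I genes under 0 at 19. Over these 5 scalings, 19 genes were under 0 with KD-2 in each, 9 were over 0 in each and 8 changed sign, and with KD-1 the numbers were 25, 5 and 6. The upper quartile gave the lowest KD-2 values of the 5, since the others add between 0.04 and 0.16 to each gene, and the KD-2 interval lay under 0 with each of the 5 for 15 genes and over 0 for 7.

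Fibroblast markers moved in opposite directions in the knockdown libraries. All 10 of the list (Col1a1, Col1a2, Col3a1, Postn, Dcn, Lum, Thy1, Pdgfrb, Twist2 and Fbln2) had reads in every library, and their summed scaled reads were 104629 in control, 54613 with KD-1 and 194937 with KD-2. In KD-1, 6 of the 10 were past 1.5-fold lower, beside 5.65% of all genes, and none higher, with a median log2 fold change of -0.73, while with KD-2 9 were higher, beside 17.0%, and none lower, with a median of 0.80. Postn, a matrix protein of fibroblasts, had 6547 reads in control, 1902 with KD-1 and 11277 with KD-2, and Twist2, a transcription factor of mesenchymal cells, had 112, 121 and 297 reads. The ES cell markers had a median of 0.18 with KD-1 and -0.25 with KD-2. The part of these markers' cells in the complex I values was not tested, and in these bulk libraries fewer cells of a type and less RNA per cell cannot be told apart.

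**Figure D2:**
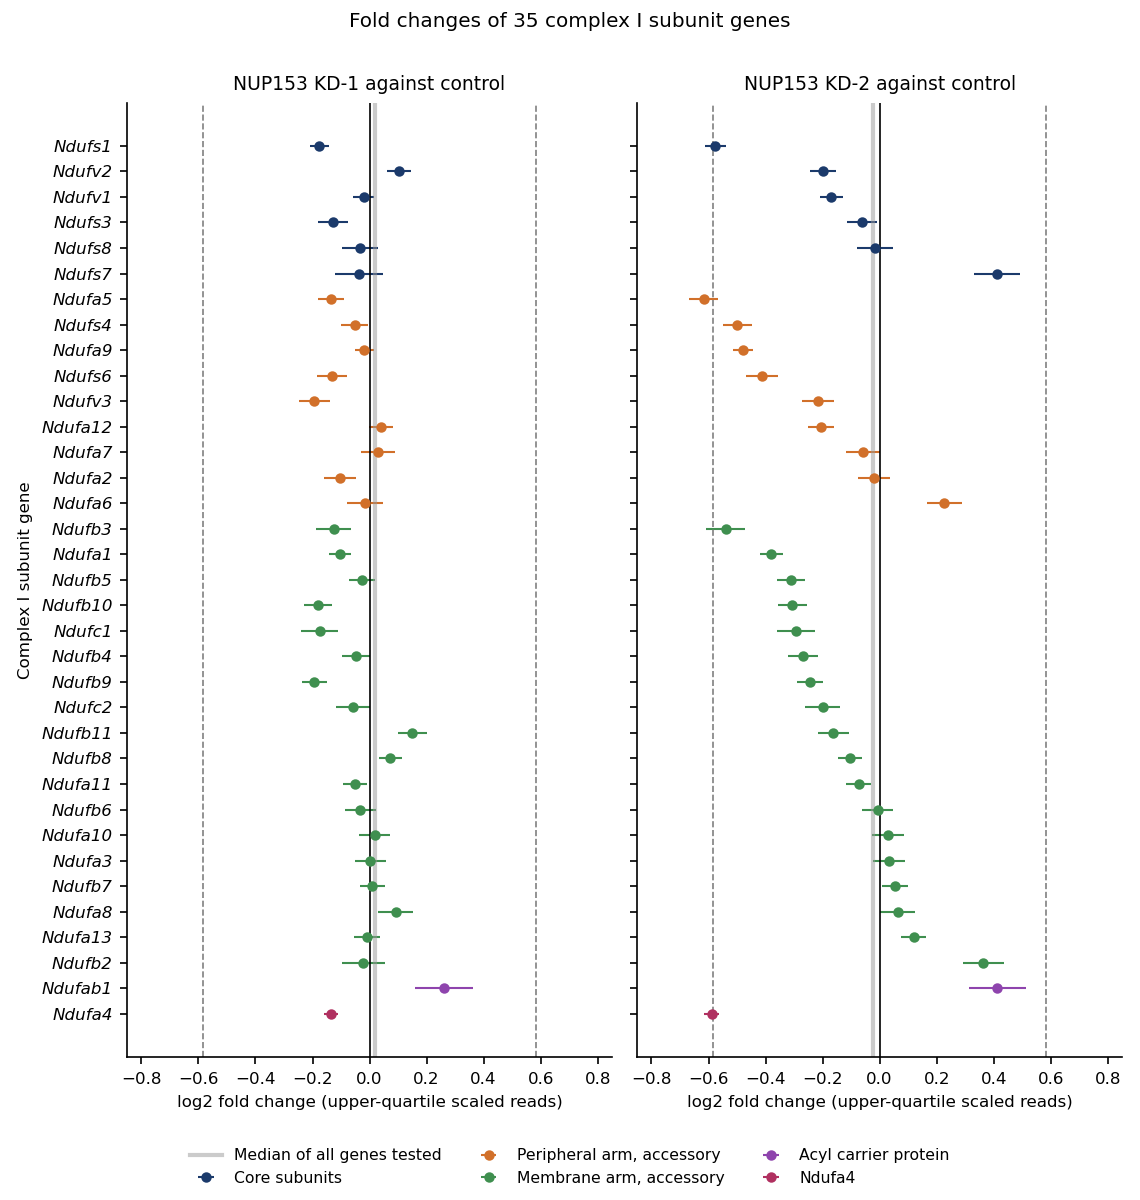
Log2 fold change of 35 complex I subunit genes with KD-1 (left) and KD-2 (right) against control, from upper-quartile scaled reads, with 1 library per condition. Points are genes colored by role, horizontal lines are 95% counting intervals, dashed lines mark 1.5-fold and the broad grey line the median of all genes tested. In KD-1 all points lie inside the dashed lines, and with KD-2 Ndufa5 and Ndufa4 lie just past the lower one.

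Core subunits of the peripheral arm were examined first. None of the 7 was past 1.5-fold in either knockdown, beside 14.2% of all genes with KD-1 and 27.2% with KD-2. Among genes in the range of reads of the complex I genes the shares were 3.95% and 16.1%. The median log2 fold change of the 7 was -0.04 with KD-1 and -0.11 with KD-2. Ndufs1, the largest subunit and the carrier of several iron-sulfur clusters, had 15179 scaled reads in control, 13435 with KD-1 and 10182 with KD-2. KD-2 was the lowest of the 3 libraries for this gene, with a log2 fold change of -0.58 (-0.61 to -0.54) with KD-2 and -0.18 (-0.21 to -0.14) with KD-1, where the range in parentheses, here and below, is the 95% counting interval. Ndufs7, which holds the last cluster before ubiquinone, had 2341 scaled reads in control, 2281 with KD-1 and 3114 with KD-2. It was over control with KD-2, at 0.41 (0.33 to 0.49), and its value with KD-1 was -0.04 (-0.12 to 0.05).

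Ndufs3, of the ubiquinone-reducing part, had 6433 scaled reads in control, 5886 with KD-1 and 6165 with KD-2, giving -0.13 (-0.18 to -0.08) with KD-1 and -0.06 (-0.11 to -0.01) with KD-2. With total reads the KD-2 value of Ndufs3 turned to 0.10 (0.04 to 0.15). Ndufs8, a carrier of iron-sulfur clusters, had 4205 scaled reads in control, 4111 with KD-1 and 4160.0 with KD-2, and its intervals included 0 in both, at -0.03 (-0.09 to 0.03) and -0.02 (-0.08 to 0.05). For Ndufs8 the KD-2 interval lay over 0 with total reads, and the KD-1 interval under 0 with DESeq2's size factors.

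Of the NADH-oxidizing part, Ndufv1, which binds NADH and the flavin, had 11584 scaled reads in control, 11415 with KD-1 and 10305 with KD-2. Its log2 fold change was -0.02 (-0.06 to 0.02) with KD-1 and -0.17 (-0.21 to -0.13) with KD-2, and with total reads the KD-2 interval included 0. The KD-1 interval of Ndufv1 lay under 0 with TMM scaling and DESeq2's size factors. Ndufv2, its partner with a further iron-sulfur cluster, had 8675 scaled reads in control, 9310.5 with KD-1 and 7561 with KD-2. KD-1 was the highest and KD-2 the lowest library for Ndufv2, with 0.10 (0.06 to 0.14) and -0.20 (-0.24 to -0.15). The KD-2 interval reached 0 with total reads and the KD-1 interval with DESeq2's size factors.

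Accessory subunits of the peripheral arm were mostly under control with KD-2. Of these 9 genes 1 (11.1%), Ndufa5, was past 1.5-fold lower with KD-2, beside 10.2% of all genes. None was past it with KD-1, beside 14.2% of all genes in either direction. Their median was -0.05 with KD-1 and -0.22 with KD-2. Ndufa5, a small subunit on the ubiquinone-reducing part, had 8042 scaled reads in control, 7327 with KD-1 and 5245 with KD-2. Control and KD-1 were close to each other and KD-2 stood below both, at -0.13 (-0.18 to -0.09) with KD-1 and -0.62 (-0.67 to -0.57) with KD-2, which is 0.652 times control. Ndufs4, a stabilizer of the NADH-oxidizing part whose loss causes Leigh syndrome, had 7616 scaled reads in control, 7345 with KD-1 and 5391 with KD-2. KD-2 was again the lowest library, at -0.50 (-0.55 to -0.45) beside -0.05 (-0.10 to -0.0058) with KD-1.

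Ndufa9, a subunit of the dehydrogenase fold where both arms meet, had 15496 scaled reads in control, 15299.8 with KD-1 and 11113 with KD-2. The KD-1 interval included 0, at -0.02 (-0.05 to 0.01), but lay under 0 with TMM scaling and DESeq2's size factors, and KD-2 was at -0.48 (-0.52 to -0.44). Ndufs6, which binds zinc, had 6196 scaled reads in control, 5657 with KD-1 and 4659.7 with KD-2, giving -0.13 (-0.18 to -0.08) with KD-1 and -0.41 (-0.47 to -0.36) with KD-2. Ndufv3, an accessory subunit of the NADH-oxidizing part, had 5913 scaled reads in control, 5169 with KD-1 and 5087 with KD-2. On the scaled reads the knockdown libraries lay within counting error of each other for Ndufv3, at -0.19 (-0.25 to -0.14) and -0.22 (-0.27 to -0.16). With DESeq2's size factors and total reads the interval of KD-1 against KD-2 lay under 0 for Ndufv3.

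The remaining accessory genes of the peripheral arm were within 0.23 of control in both knockdowns. Ndufa12, a relative of the assembly factor Ndufaf2, had 9076 scaled reads in control, 9338 with KD-1 and 7869.5 with KD-2, and only KD-2 was lower, at -0.21 (-0.25 to -0.16). Ndufa2, with a thioredoxin-like fold, had 5294 scaled reads in control, 4931 with KD-1 and 5225 with KD-2, and Ndufa7 had 4683 scaled reads in control, 4779 with KD-1 and 4496 with KD-2, with KD-2 intervals that included 0 for both. With total reads both KD-2 intervals lay over 0. With KD-1 Ndufa2 was lower, at -0.10 (-0.16 to -0.05). Ndufa6, which binds an acyl carrier protein, had 4189.5 scaled reads in control, 4144 with KD-1 and 4902 with KD-2. It was over control with KD-2, at 0.23 (0.17 to 0.29), beside -0.02 (-0.08 to 0.05) with KD-1.

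Accessory subunits of the membrane arm were the largest group, with 18 genes tested. None was past 1.5-fold in either knockdown, beside 14.2% of all genes with KD-1 and 27.2% with KD-2. The median was -0.03 with KD-1 and -0.13 with KD-2, and with KD-2 6 genes lay over 0 and 12 under. Ndufb3, a small single-span membrane subunit, had 4449 scaled reads in control, 4077 with KD-1 and 3061 with KD-2. It was the lowest of the group with KD-2, at -0.54 (-0.61 to -0.47), and was at -0.13 (-0.19 to -0.06) with KD-1. Ndufa1, a small X-linked subunit and one of the most highly expressed genes per length, had 11336 scaled reads in control, 10551 with KD-1 and 8715 with KD-2, with -0.10 (-0.14 to -0.07) and -0.38 (-0.42 to -0.34). Ndufb5 had 7665 scaled reads in control, 7531 with KD-1 and 6175 with KD-2, and KD-2 was the lowest library, at -0.31 (-0.36 to -0.26).

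Several genes of the membrane arm were lower in both knockdown libraries. Ndufb9, which binds an acyl carrier protein in the membrane arm, had 9003 scaled reads in control, 7869 with KD-1 and 7598 with KD-2, giving -0.19 (-0.24 to -0.15) and -0.24 (-0.29 to -0.20). Ndufb10, an intermembrane-space subunit with paired cysteine motifs, had 7133 scaled reads in control, 6295 with KD-1 and 5767 with KD-2, giving -0.18 (-0.23 to -0.13) and -0.31 (-0.36 to -0.26). Ndufc1, a small membrane subunit, had 4099 scaled reads in control, 3631 with KD-1 and 3346 with KD-2, giving -0.17 (-0.24 to -0.11) and -0.29 (-0.36 to -0.23). For these 3 genes both intervals lay under 0. Of the other membrane subunits under control, Ndufb4 had 6583 scaled reads in control, 6368 with KD-1 and 5463 with KD-2, and Ndufc2 had 4797 scaled reads in control, 4606 with KD-1 and 4175 with KD-2. In KD-2 they were at -0.27 (-0.32 to -0.22) and -0.20 (-0.26 to -0.14), and with total reads at -0.11 and -0.04, where the interval of Ndufc2 included 0.

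Ndufb11 and Ndufb8 were over control with KD-1 and under it with KD-2 on the scaled reads. Ndufb11, the other X-linked member, had 6059 scaled reads in control, 6719.8 with KD-1 and 5415 with KD-2, giving 0.15 (0.10 to 0.20) with KD-1 and -0.16 (-0.22 to -0.11) with KD-2. Ndufb8 had 9928 scaled reads in control, 10443 with KD-1 and 9236 with KD-2, with 0.07 (0.03 to 0.11) and -0.10 (-0.15 to -0.06). With total reads the KD-2 value of Ndufb8 turned to 0.05 (0.01 to 0.10), over control as with KD-1, and that of Ndufb11 was -0.0042, with an interval that included 0. Of the exons of Ndufb11, 12.9% overlap Rbm10 on the other strand, and the strand setting of the counting is not given in the sources used here.

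Ndufb2 stood apart at the upper end of the membrane arm. Ndufb2, a small membrane subunit, had 2917 scaled reads in control, 2872 with KD-1 and 3753 with KD-2, so that KD-2 was the highest library, at 0.36 (0.29 to 0.44) beside -0.02 (-0.10 to 0.05) with KD-1. Ndufa13, known also as GRIM-19, had 8406 scaled reads in control, 8354 with KD-1 and 9132 with KD-2, and KD-2 was slightly higher, at 0.12 (0.08 to 0.16). Ndufa8 had 4339 scaled reads in control, 4622 with KD-1 and 4532 with KD-2, and Ndufb7 had 7773 scaled reads in control, 7828 with KD-1 and 8062 with KD-2, both intermembrane-space subunits like Ndufb10. Their KD-2 values of 0.06 (0.0013 to 0.12) and 0.05 (0.0067 to 0.10) lay barely over 0. Ndufa3 had 5401 scaled reads in control, 5410.1 with KD-1 and 5526 with KD-2, Ndufa10, with a fold like that of nucleoside kinases, had 5376 scaled reads in control, 5445 with KD-1 and 5487 with KD-2, and Ndufb6 had 5699 scaled reads in control, 5574 with KD-1 and 5674 with KD-2. On the scaled reads the intervals of these 3 genes included 0 in both knockdowns, but with KD-2 those of Ndufa3 and Ndufa10 lay over 0 with the 4 other scalings and that of Ndufb6 with 2 of them. With KD-1 the intervals of Ndufa3 and Ndufb6 lay under 0 with DESeq2's size factors. Ndufa11, at the side of the membrane arm that meets complex III in supercomplexes, had 9013 scaled reads in control, 8704 with KD-1 and 8568 with KD-2, with -0.05 (-0.09 to -0.0078) and -0.07 (-0.12 to -0.03), and its KD-2 value turned to 0.08 with total reads.

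Ndufab1 and Ndufa4 were kept apart from the arms. Ndufab1, the acyl carrier protein of mitochondrial fatty acid synthesis and of complex I, had 1465 scaled reads in control, 1755 with KD-1 and 1951 with KD-2. On the scaled reads it was the only gene with intervals over 0 in both knockdowns other than Ndufa8, at 0.26 (0.16 to 0.36) with KD-1 and 0.41 (0.31 to 0.51) with KD-2. It was the highest of the 36 genes in each, but with KD-2 Ndufs7, at 0.41 (0.33 to 0.49), lay within counting error of it. Ndufab1 shares 9.27% of its 50-base stretches with other genes, which include a pair of processed pseudogenes. Ndufa4, which carries a complex I name but is now placed in complex IV, had 30141 scaled reads in control, 27456 with KD-1 and 20039.5 with KD-2. KD-2 was the lowest library, at -0.13 (-0.16 to -0.11) with KD-1 and -0.59 (-0.62 to -0.56) with KD-2, or 0.665 times control. Without Ndufa4 the median of the remaining 35 genes was -0.16 with KD-2 and 1 gene was past the limit.

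The total output of complex I genes was compared next. Reads on the 37 genes came to 3618 RPM (as RPKM, but not divided by length) in control, 3453 RPM with KD-1 and 3457 RPM with KD-2. On the scaled reads, which set libraries to a common upper quartile, the sum was 0.960 times control with KD-1 and 0.857 times control with KD-2. The sums were 0.874 times control with KD-2 for core genes, 0.812 for peripheral accessory genes and 0.914 for membrane accessory genes. In RPM the membrane accessory genes turned to slightly over control, with 1535 in control and 1565 with KD-2.

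To compare the shRNAs, KD-1 was set against KD-2 directly, without the control library. No complex I gene was past 1.5-fold in this comparison, while 13.9% of all genes were higher with KD-1 and 16.2% lower. The median of the 36 genes was 0.10, beside 0.12 for all genes, and that median changed sign with the scaling, from -0.06 with total reads to 0.10. Ndufa5 was at 0.48 (0.43 to 0.53), Ndufa9 at 0.46 (0.43 to 0.50), Ndufa4 at 0.45 (0.43 to 0.48) and Ndufs4 at 0.45 (0.40 to 0.50), all higher with KD-1. Ndufs7 was at -0.45 (-0.53 to -0.37) and Ndufb2 at -0.39 (-0.45 to -0.32), both higher with KD-2. Ndufs7 passed 1.5-fold with scaling by total reads.

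Both knockdown libraries were then taken as 1 group and set against control in edgeR's quasi-likelihood test, in which the spread comes from 2 libraries with different shRNAs and 1 residual degree of freedom. Nup153 itself, at a log2 fold change of -1.19, was not called by this test, so a gene without a call cannot be taken as unchanged. No complex I gene was called at an adjusted p under 0.05, beside 0.00945% of 21164 genes (2 genes), and none had an unadjusted p under 0.05, beside 264 of all 21164 genes. DESeq2's Wald test likewise called no complex I gene and gave none with an unadjusted p under 0.05. The lowest p of the edgeR test was 0.412, for Ndufa5, with a log2 fold change of -0.36, and the median over the 36 genes was -0.09 beside 0.03 for all genes.

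The base composition of transcripts was examined because fold changes with KD-2 varied with it across all genes. When all tested genes with a transcript were split into 10 equal parts by the G and C content (GC) of the transcript, the median log2 fold change with KD-2 went from -0.28 in the lowest part to 0.47 in the highest, and with KD-1 from -0.03 to 0.10. Complex I genes followed the same direction with KD-2. The 13 genes under the median GC of all genes, 50.3%, had a median of -0.38 with KD-2, and 12 of them were under 0, while the 23 genes at or over it had a median of -0.06, with 15 under 0. In KD-1 the medians were -0.05 and -0.03. Over the 36 genes, Spearman's rho of the KD-2 log2 fold change with transcript GC was 0.47 and with coding GC 0.67, while for all genes it was 0.36 with transcript GC. These are descriptions over genes that share the same libraries, and the part of GC in the complex I values was not tested.

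The coding sequences of the 2 genes with the lowest and the 2 with the highest KD-2 values were compared. Coding GC was 47.3% in Ndufa5 and 48.2% in Ndufa4, and it was 52.7% in Ndufab1 and 61.5% in Ndufs7. Their first 120 coding bases are given from GENCODE vM21 (GRCm38), with G and C in capitals. They lie in 3 exons between chr6:24522722-24527546 on the minus strand for Ndufa5, in 2 exons between chr6:11906031-11907365 on the minus strand for Ndufa4, in 1 exon at chr7:122101703-122101822 on the minus strand for Ndufab1 and in 3 exons between chr10:80249476-80253140 on the plus strand for Ndufs7:
Ndufa5: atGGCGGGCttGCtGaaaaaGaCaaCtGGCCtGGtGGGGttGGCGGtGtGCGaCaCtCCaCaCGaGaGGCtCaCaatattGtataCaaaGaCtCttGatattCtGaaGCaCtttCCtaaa
Ndufa4: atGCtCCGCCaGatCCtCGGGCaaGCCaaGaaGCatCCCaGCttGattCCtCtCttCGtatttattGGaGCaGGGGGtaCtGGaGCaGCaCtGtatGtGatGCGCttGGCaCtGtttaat
Ndufab1: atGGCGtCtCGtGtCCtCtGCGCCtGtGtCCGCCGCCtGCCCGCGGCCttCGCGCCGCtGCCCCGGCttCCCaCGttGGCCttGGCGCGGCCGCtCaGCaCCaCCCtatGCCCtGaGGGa
Ndufs7: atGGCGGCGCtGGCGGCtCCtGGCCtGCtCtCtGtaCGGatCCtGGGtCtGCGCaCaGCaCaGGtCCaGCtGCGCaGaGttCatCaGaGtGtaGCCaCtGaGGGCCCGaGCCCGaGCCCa
In these stretches GC was 48.3% for Ndufa5, 51.7% for Ndufa4, 73.3% for Ndufab1 and 66.7% for Ndufs7. Over its whole transcript, of which 471 of 3479 bases are coding, Ndufab1 has 45.3% GC.

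When the median of each gene's GC part was subtracted, an alternative chosen after seeing the data, complex I genes lay lower in both knockdowns. Their median became -0.22 with KD-2 and -0.09 with KD-1, beside -0.10 and -0.03 for genes in their range of reads, and none was past 1.5-fold. Of 15202 genes centred in the same way, 2386 were higher and 1034 lower with KD-2, and 1138 higher and 905 lower with KD-1. Ndufab1 remained the highest with KD-2, at 0.57, and Ndufa5 the lowest, at -0.52. Ndufs7 went from 0.41 to -0.06, since the median of its GC part, 0.47, was subtracted.

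The promoters of complex I genes were searched for the letters that regulators of respiratory genes are known to bind. RefSeq promoter sequences (GRCm38.p6), from 250 bases before to 50 bases after the start, were used for 33 of the 37 genes, and exact matches on either strand were counted. AAGATGG, the core of YY1 sites, was found in 7 of the 33 genes, or 21.2%, beside 7.28% of all 27025 genes with a promoter. GCGCATGC, of NRF1, was found in 3 genes (9.09% beside 3.05%), CCGGAAG, of GABPA, in 4 (12.1% beside 9.93%), AAGGTCA, of ESRRA, in 3 (9.09% beside 5.38%), and GGGCGG, of SP1, in 15 (45.5% beside 38.2%). A match is a description of the letters and not a bound site.

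All 7 matches to AAGATGG lay on the strand of the gene, with the first base between 23 and 39 bases after the start. In each of the 7 genes the letters ATG within the match were the start codon of the GENCODE coding sequence, so that promoter and first codon share these bases. On the strand of the gene within 50 bases after the start, the same letters were found in 1.54% of all genes with a promoter (416 genes). To show the shared position, 33 bases around each match are given, 5′ to 3′ on the strand of the gene, with the match in capitals:
Ndufa3: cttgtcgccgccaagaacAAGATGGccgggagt
Ndufa9: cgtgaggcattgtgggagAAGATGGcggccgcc
Ndufb8: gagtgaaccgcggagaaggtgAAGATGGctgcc
Ndufc1: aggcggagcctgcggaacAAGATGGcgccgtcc
Ndufs4: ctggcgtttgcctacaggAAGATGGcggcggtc
Ndufs6: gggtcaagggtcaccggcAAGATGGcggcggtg
Ndufs7: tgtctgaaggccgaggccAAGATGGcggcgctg
In KD-2 the log2 fold changes of these 7 genes ran from -0.50 for Ndufs4 to 0.41 for Ndufs7, with a median of -0.29, and with KD-1 the median was -0.04. They thus included genes from both ends of the KD-2 order.

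The 3 genes with a match to GCGCATGC, the palindrome-like site of NRF1, are shown in the same way, with the match on either strand in capitals:
Ndufa11: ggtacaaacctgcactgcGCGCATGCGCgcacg
Ndufa6: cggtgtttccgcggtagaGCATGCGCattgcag
Ndufa8: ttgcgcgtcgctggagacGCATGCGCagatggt
In Ndufa11 matches on both strands overlap. The median of these 3 genes was -0.02 with KD-1 and 0.06 with KD-2. The windows of both sets are at chr7:3617377-3617409 for Ndufa3, chr6:126849101-126849133 for Ndufa9, chr19:44555393-44555425 for Ndufb8, chr3:51408919-51408951 for Ndufc1, chr13:114388045-114388077 for Ndufs4, chr13:73328435-73328467 for Ndufs6, chr10:80249455-80249487 for Ndufs7, chr17:56717684-56717716 for Ndufa11, chr15:82354360-82354392 for Ndufa6 and chr2:36049332-36049364 for Ndufa8.

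Factors that assemble complex I but are not part of it were examined from a list of 18, of which 14 were in the counts. In KD-1 none was past 1.5-fold on the scaled reads, beside 14.2% of all genes, and the median was -0.06. In KD-2, 1 (7.14%, beside 10.2% of all genes) was lower and none higher, and the median was -0.28, with 13 of 14 under 0. Ndufaf4, a factor of early assembly, had 6209 reads in control, 5888 with KD-1 and 4385 with KD-2, for a log2 fold change of -0.31 with KD-1 and -0.61 with KD-2, a call made with the upper quartile alone of the 5 scalings. Nubpl, which delivers iron-sulfur clusters to complex I, had 1192, 1354 and 932 reads and was at -0.46 with KD-2. Tmem126b, of the membrane-arm assembly complex, had 772, 623 and 753 reads and was at -0.54 with KD-1, and 1 of the 5 scalings, at -0.60, called it lower. The 7 ND genes of mitochondrial DNA were not found by symbol in the counts and could not be analysed here.

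The other complexes of the respiratory chain gave medians close to complex I with KD-1, and somewhat lower ones with KD-2, a difference that was not tested. In KD-1 the medians were -0.04 for complex II (4 genes), -0.04 for complex III (9 genes), -0.06 for complex IV (10 genes) and -0.04 for complex V, the ATP synthase (15 genes), and none of these genes was past 1.5-fold, beside 14.2% of all genes. In KD-2 they were -0.21, -0.27, -0.28 and -0.30. Sdha, the flavoprotein of complex II, had 20716 reads in control, 22085 with KD-1 and 17455 with KD-2, for -0.14 and -0.35. In complex III, Uqcrb was at -0.57 and Uqcrq at 0.49 with KD-2, so that this complex too held genes on both sides of control. Past 1.5-fold with KD-2, as were 27.2% of all genes, were Cox5b of complex IV, higher, with 5255 reads in control, 7416 with KD-1 and 11836 with KD-2, and Cox7a2 of complex IV and Atp5k of complex V, both lower at -0.60. Of the 5 scalings, Cox5b was called with each, and Cox7a2 and Atp5k with the upper quartile alone, while Uqcrq and Cox6a1 were called higher with 1 other scaling. Cox5b, at 1.06, was further from control with KD-2 than any complex I gene.

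**Figure D3:**
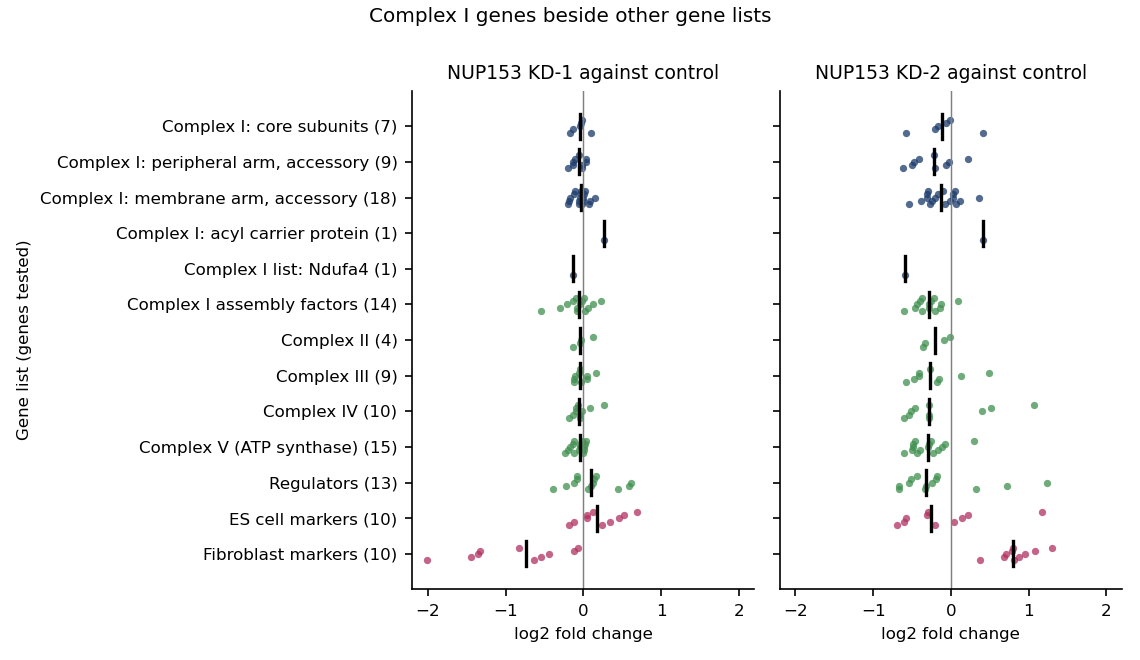
Log2 fold change of each gene with KD-1 (left) and KD-2 (right) for complex I genes by role (blue), assembly factors, complexes II to V and regulators (green) and cell type markers (red), with the number of genes tested. Points are genes and black bars are medians, with 1 core gene in the number and median but not drawn; complex I medians by arm lie between -0.22 and -0.03, and the fibroblast markers lie at -0.73 with KD-1 and 0.80 with KD-2.

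Among 13 regulators of respiratory genes, 2 were past 1.5-fold higher with KD-1 and none lower, and with KD-2 2 were higher and 2 lower. Calls made up 15.4% of the list with KD-1, beside 14.2% of all genes, and 30.8% with KD-2, beside 27.2%. The median was 0.10 with KD-1 and -0.32 with KD-2. Ppargc1a, the coactivator PGC-1α, had few reads, with 30 reads in control, 54 with KD-1 and 77 with KD-2, and was at 0.61 with KD-1 and 1.24 with KD-2, with wide counting intervals of -0.05 to 1.31 and 0.63 to 1.91. Esrra, the estrogen-related receptor α, had 533, 686 and 951 reads and was at 0.73 with KD-2. Ppargc1b had 27, 48 and 23 reads, and both of its counting intervals included 0. Tfam, which packages and transcribes mitochondrial DNA, had 11394, 11490 and 7735 reads and was lower with KD-2, at -0.67. Of the 5 scalings, both lower calls with KD-2, Tfam and Tfb1m, were made with 4, and of the higher calls with KD-1 Ppargc1a was made with 4 and Ppargc1b with 2. Yy1, added after its values were seen because its letters were searched, had 6040, 7687 and 5518 reads, for 0.12 with KD-1 and -0.24 with KD-2.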

How the data were processed

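RNA-Seq was carried out on total RNA depleted of ribosomal RNA in 3 libraries, 1 per condition, sequenced as 50 bp single-end reads. The authors trimmed reads with Trim Galore 0.4.1, mapped them with TopHat2 2.1.1 to mm10 (GRCm38) and deposited raw read counts per gene; the methods name featureCounts with a mapping quality over 30, while the submitters' processing notes name HTSeq. The strand setting is not given in the sources used here, and reads that fit several genes equally well are lost by such a filter. Each file ends in 5 summary lines, which were left out of library totals and tests; reads outside of genes among them were 23.0% to 25.6% of reads. Groups were taken from the sample titles, and 72344726, 85258834 and 69839336 reads on genes were used for control, KD-1 and KD-2.

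Reads were scaled by the upper quartile (edgeR 4.0.16, R 4.3.3), log2 fold changes, with 0.5 reads added, were taken for the 16670 genes that averaged at least 10 reads, and genes were called past 1.5-fold, the limit of the methods. The methods set the dispersion from spike-ins, which were not used here, so a single knockdown has no p-value; its 95% intervals are exact Clopper-Pearson intervals of the ratio of reads and cover counting error only. Both knockdowns were compared to control with the edgeR quasi-likelihood test (Benjamini-Hochberg, adjusted p under 0.05), with the DESeq2 1.42.0 Wald test as an alternative. The labels give no separate cultures, so that p-values measure only the spread between these libraries. Computations were tested on simulated data. RPKM, GC and coding sequences were computed with GENCODE vM21, in which 23336 genes matched by symbol and 648 by an older symbol, and promoters are from RefSeq (GRCm38.p6). Alternatives were the TMM, DESeq2 and total-read scalings, the upper quartile of those 16670 genes, minimum means of 1 and 100 reads, a pseudocount of 5 reads, a lower and a higher fold limit, leaving out each knockdown, and, chosen after seeing the data, centring by GC part and union exon lengths. The members and lists were chosen with earlier results of these data known. Members named with values by rule were the core genes, Ndufab1, Ndufa4 and the 5 furthest from control in each of the 3 comparisons, and of each other list the 2 furthest with KD-1 and with KD-2; values of the other members were added after they were seen. Values of 1 gene are not reported or drawn here, while counts, sums and medians over the members hold it. Python 3.11.15, pandas 2.3.3, scipy 1.17.1 and matplotlib 3.10.9 were used.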

Additional observations from a re-analysis of the deposited data

Results flagged for a closer look

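In 3 of the 36 complex I genes the counting intervals of the knockdown libraries lay on opposite sides of control with the upper-quartile scaling. How many of all genes did the same was not counted. Of all 16670 genes, the interval lay over 0 for 4711 and under 0 for 4446 with KD-1. With KD-2 it lay over 0 for 5257 and under 0 for 6069. Ndufb11, an X-linked subunit of the membrane arm, had a log2 fold change of 0.15 with KD-1 and -0.16 with KD-2. Ndufb8, of the same arm, was at 0.073 and -0.10, and Ndufv2, a core subunit with an iron-sulfur cluster, at 0.10 and -0.20. With total reads this held for none of them, because the KD-2 intervals of Ndufb11 and Ndufv2 included 0, at -0.0042 and -0.04, and Ndufb8 turned to 0.05. With DESeq2's size factors the KD-1 intervals of Ndufb8 and Ndufv2 included 0. KD-1 and KD-2 share the control library, there is 1 library of each, and the difference was not tested against replicates. In the same libraries the 10 fibroblast markers had medians of -0.73 with KD-1, all under 0, and 0.80 with KD-2, all over 0. The 10 ES cell markers had medians of 0.18 with KD-1, with 8 over 0, and -0.25 with KD-2, with 4 over 0 and 6 under. The part of these markers' cells in the values was not tested.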

How the results depend on the processing

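Medians of the complex I genes were under 0 against control with the 4 other scalings and the other pseudocount, but with total reads that of KD-2 was -0.0076, and the calls in KD-2 were lost with these scalings but not with the pseudocount. All 36 genes pass both other read minimums, which leave their values as they are. In KD-2, 2 genes were past 1.5-fold; this became 0 with TMM scaling, DESeq2's size factors, total reads, the upper quartile of genes averaging at least 10 reads, a 2-fold limit and centring by GC part, and 11 (30.6%, beside 55.6% of all genes) with a limit lower than 1.5-fold. The cause was not tested, other than that another limit calls more or fewer genes by construction. Between KD-1 and KD-2 the number was 0, but 1 with total reads and 8 (22.2%, beside 58.3% of all genes) with a limit lower than 1.5-fold. With centring by GC part the median of complex I genes minus that of all genes moved to -0.22 with KD-2 and to 0.053 between KD-1 and KD-2. For both knockdowns against control, leaving out either library, which carry different shRNAs, gave medians of -0.17 (without KD-1) and -0.035 (without KD-2). These are the medians of the single knockdowns, with no test. With both knockdowns in the fit the number of complex I genes called was 0 with edgeR under the upper quartile, TMM and DESeq2's size factors and with DESeq2, and 0 had an unadjusted p under 0.05. Over the union of all annotated exons the median level was 60.4 RPKM in control, 60.5 with KD-1 and 56.5 with KD-2. No paired analysis was possible because each condition has a single library. Of 288 values of single genes under the scalings, the pseudocount and the GC centring, 138 moved by more than their counting error and 150 did not. Ndufs5 was listed at 0, and the other genes had at least 1356 reads in control.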

Other observations

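Of 8 markers of differentiated lineages, 2 were past 1.5-fold higher with KD-1, beside 8.58% of all genes, and 3 with KD-2, beside 17.0%, and none was lower. Their median log2 fold change was 0.28 with KD-1 and 0.03 with KD-2, where 4 of the 8 lay under 0. Cdx2, a transcription factor of trophectoderm, had 6 reads in control, 25 with KD-1 and 24 with KD-2, and Gata6, of primitive endoderm, had 46, 63 and 105 reads. The other calls rest on few reads and their counting intervals included 0 with the upper quartile, for Sox17 with KD-1 (15 reads in control and 31 with KD-1) and for T with KD-2 (33 reads in control and 55 with KD-2). With the 4 other scalings the KD-2 interval of T lay over 0, and the KD-1 interval of Sox17 still included 0. Nes, Krt18 and Pax6, which had between 273 and 5304 reads in control, were at -0.39, -0.36 and -0.34 with KD-2 and at 0.35, 0.22 and 0.33 with KD-1, on the upper-quartile scaled reads. Counting intervals did not reach 0 on that scale, but with total reads those of Krt18 and Pax6 reached it in KD-2, and with TMM scaling and DESeq2's size factors that of Krt18 in KD-1.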
